A study of Mus musculus with 4 samples.

Results

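Primitive erythroid cells of the mouse heart at E9.5 were taken as the cells of the E9.5 library in which alpha- and beta-type globin genes (symbols Hba- and Hbb-) gave at least 1000 of every 10000 unique molecular identifiers (UMIs, each counted as 1 captured RNA molecule). This rule found 249 of 1199 kept E9.5 cells, or 20.8% (exact Clopper-Pearson 95% interval 18.5 to 23.2). Kept cells had at least 500 genes and at most 10% mitochondrially encoded UMIs, and the whole series held 1975 of them among 2160 deposited. The members were thus chosen by their own globin counts, and every contrast of these cells with other cells is a description and carries no test.

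The study sequenced single cells of the developing mitral valve by droplet 3' RNA sequencing. Mice of the C57BL/6 strain label carried Tie2-Cre and a tdTomato reporter at the Rosa26 locus, and tomato-positive cells were sorted from microdissected tissue after an enzyme digest. At E9.5 the tissue was the atrioventricular canal (1 library), and the mitral valve was taken at E16.5 (1 library) and on the day of birth, P0 (2 libraries). At least 60 embryos were pooled per stage, so a cell cannot be tied to an embryo, and all groups share the Cre and the reporter. Tie2 is active in endothelium and in blood progenitors, so its Cre is known to mark blood cells as well as the heart lining. The reporter is not in the gene table, and whether each E9.5 cell, erythroid or other, carried it was not tested. Many of the other E9.5 cells were rich in cardiomyocyte markers, with a median sum of 480.8 per 10000 non-globin UMIs over 14 genes. How such cells came through the sort was not tested.

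Primitive erythroid cells form in the blood islands of the yolk sac, enter the circulation as nucleated cells when the heart begins to beat, and mature there in a synchronous wave. They are known for embryonic globins: zeta globin (Hba-x) on the alpha side, and epsilon-y (Hbb-y) and beta-h1 (Hbb-bh1) on the beta side. During this maturation the cells are known to shift from Hbb-bh1 towards Hbb-y and from Hba-x towards the adult alpha genes Hba-a1 and Hba-a2.

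The globin share split the E9.5 library cleanly. Of the 950 cells outside the class, 939 had under 100 globin UMIs per 10000, 10 had 100 to 500 and 1 had 500 to 1000. Inside it, 6 cells had 1000 to 2000, 17 had 2000 to 3000, 119 had 3000 to 4000, 103 had 4000 to 5000 and 4 had more. The cells nearest the threshold stood at 379.5 and 510.4 outside and at 1161.4 and 1187.8 inside. Erythroid cells ranged from 1161.4 to 5280.4 with a median of 3914.7, as the histogram of globin shares shows.

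**Figure D1:**
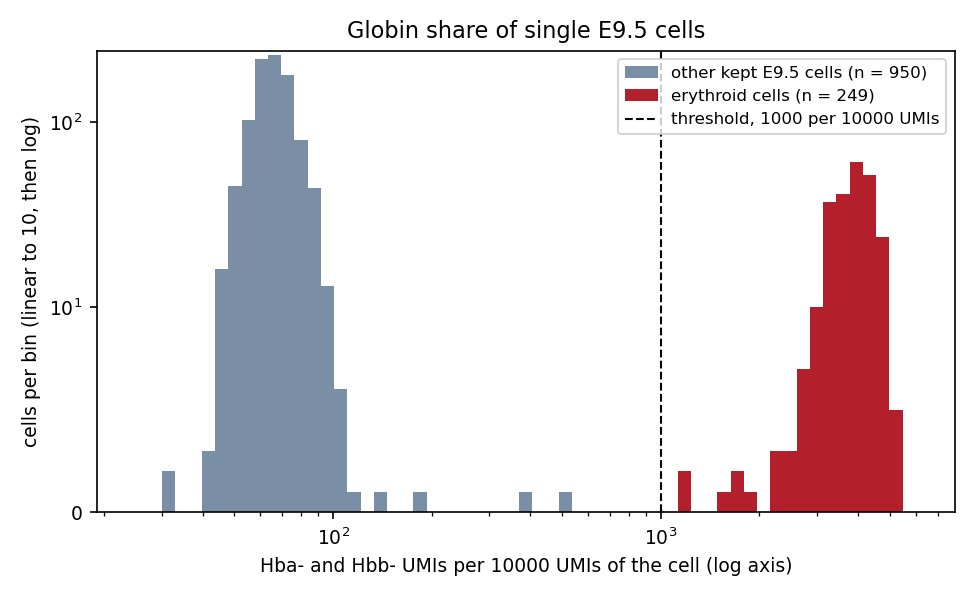
Number of kept E9.5 cells by globin UMIs per 10000 UMIs of the cell (log axis), erythroid cells (n = 249) in red and the other cells (n = 950) in grey, with the threshold dashed. The groups are separated by a nearly empty range, and the erythroid cells peak near their median of 3914.7.

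The E9.5 library held 30819374 UMIs in 1206 cells, and its erythroid cells were deeply sampled. They held 6553 to 75002 UMIs (median 32559) and 1675 to 6762 genes (median 3883), against medians of 23460 UMIs and 4801.5 genes in the other E9.5 cells. Together they gave 8240149 UMIs, of which 5140250 were not globin. The 3 mitral valve libraries were shallower, at median depths of 2362, 5164 and 4434 UMIs, and none of their cells reached the threshold. They held 43, 41 and 2 globin UMIs in all, and 0 of 316, 0 of 283 and 0 of 177 cells allow shares of up to 0.949%, 1.06% and 1.69% (3 cells each, counting error only). The barcode lists could not be tied to the cells, so barcodes shared between libraries were not counted.

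Of the 4 defining markers, Hba-x, Hbb-bh1 and Hbb-y are among the globins that chose the class, and only Alas2 sets the label against values outside the rule. Alas2 was found in 99.6% of the members and in 24.6% of the other cells. Of 15 clusters drawn from all genes, globins included, 3 held 246 cells, every one of them in the class. The 3 other members, at 1161.4, 1187.8 and 1626.2 globin UMIs per 10000, fell in clusters led by the cushion gene Hapln1, by the blood gene Pf4 and by the epicardial gene Upk3b, in that order. A further 3 members, at 2188.2, 2600.7 and 3184.9, were scored as doublets, and their cardiomyocyte markers stood at 283.9, 308.6 and 192.6 per 10000 non-globin UMIs, while no other member passed 60.0. These 6 cells are in every count below unless stated. By globin share, the counts and several single genes are also given without them, but the sums over gene lists are not.

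The sequences at the start of 3 leading globin genes and of Alas2 are shown because these genes carry the identity of the class, and because the erythroid factors Gata1 and Klf1 described below are known to bind GATA and CACCC-type letters at such genes. Each run is the 250 bases before the RefSeq start on GRCm38.p6, 5' to 3' on the gene's strand, and in all 4 genes the GENCODE gene model begins inside it, so the runs are not wholly upstream of that start. Hba-x lies at chr11:32276350-32276599 (plus strand), Hbb-y at chr7:103853208-103853457 (minus), Hba-a1 at chr11:32283422-32283671 (plus) and Alas2 at chrX:150547167-150547416 (plus). Capitals mark 3 motifs on either strand. The GATA motif was searched as AGATAA, in a variant that starts with T (TGATAA) and with G as the last letter of each (AGATAG for the former and likewise TGATAG for the latter). The others are CCACCC, bound by Klf1-type factors, and the TATA box letters TATAAA. The long run of capitals near the start of Alas2 holds 3 overlapping matches to CCACCC on the reverse strand.
Hba-x: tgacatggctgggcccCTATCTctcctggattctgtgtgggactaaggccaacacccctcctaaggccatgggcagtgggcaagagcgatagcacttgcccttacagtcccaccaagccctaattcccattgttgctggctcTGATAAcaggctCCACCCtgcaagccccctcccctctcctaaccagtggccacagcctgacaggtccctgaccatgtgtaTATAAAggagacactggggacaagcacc
Hbb-y: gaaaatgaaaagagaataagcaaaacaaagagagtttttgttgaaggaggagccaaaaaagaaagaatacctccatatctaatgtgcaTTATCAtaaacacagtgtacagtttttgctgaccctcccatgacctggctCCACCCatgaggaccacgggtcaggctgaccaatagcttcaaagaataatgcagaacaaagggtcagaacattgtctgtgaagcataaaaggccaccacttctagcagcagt
Hba-a1: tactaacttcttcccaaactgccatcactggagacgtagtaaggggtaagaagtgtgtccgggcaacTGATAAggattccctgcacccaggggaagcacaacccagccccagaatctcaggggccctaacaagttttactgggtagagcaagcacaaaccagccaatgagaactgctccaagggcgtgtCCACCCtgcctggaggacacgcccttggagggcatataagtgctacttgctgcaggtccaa
Alas2: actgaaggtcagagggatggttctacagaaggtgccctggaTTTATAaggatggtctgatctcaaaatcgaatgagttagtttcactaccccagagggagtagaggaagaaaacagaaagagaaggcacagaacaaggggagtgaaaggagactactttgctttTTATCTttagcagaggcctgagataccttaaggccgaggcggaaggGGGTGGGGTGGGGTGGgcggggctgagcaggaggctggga
All 4 windows held both a GATA match and CCACCC, and of 32851 promoter windows of this length 26.5% held a GATA match, 28.1% CCACCC and 12.4% TATAAA. The letters are a description and show no binding. Among 11 haem synthesis genes with a window, 2 held a GATA match and 4 held CCACCC, and among 14 cardiomyocyte marker genes the counts were 5 and 8. The windows of 13 erythroid transcription factor genes gave 5 and 9, and those of 12 membrane protein genes gave 5 and 7.

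Embryonic globins dominated, and the adult beta genes were a minor part of the globin UMIs. The most abundant was Hbb-y, with 1474 per 10000 of all UMIs over the class (single cells 396.5 to 2268.7, median 1525.2). Hba-x followed at 838.6 (221.6 to 1293.7, median 844.9) and Hbb-bh1 at 837.1 (284.1 to 1215.7, median 844.0). Together these 3 gave 83.7% of all globin UMIs. Hba-a1, an adult-type alpha gene already active in primitive cells, stood at 512.8 (58.4 to 885.7), and its near-identical copy Hba-a2 at 80.7 (5.69 to 291.2). Reads of this pair can be split uncertainly by any counter. The adult beta genes Hbb-bs and Hbb-bt, also near-identical, stood at 13.0 and 5.63. They were found in 97.59% and 86.35% of the members, and in 35.47% and 19.37% of the other cells. The minor embryonic gene Hbb-bh2 stood at 0.229. Theta globin Hbq1b, which the rule did not use, had 917 UMIs in 225 of 249 cells (90.4%), against 22 UMIs in 2.32% of the other cells, while its relative Hbq1a had 7.

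Within each family the make-up varied between cells around stable averages. Hba-x made up 58.6% of alpha-type UMIs (cells 37.5 to 77.6%, median 58.4%), Hba-a1 35.8% and Hba-a2 5.64%. Hbb-y made up 63.3% of beta-type UMIs (cells 43.0 to 71.2%, median 63.6%) and Hbb-bh1 35.9% (28.3 to 55.6%, median 35.7%). Both adult beta genes together made 0.800% (median 0.498%), but they passed 2% in 27 cells and reached 11.5% in 1 of them. Alpha-type UMIs numbered 0.615 per beta-type UMI, and this ratio ran from 0.251 to 1.05 over single cells.

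Cells poorer in globin carried relatively more Hbb-bh1. Across the 249 cells Spearman's rho between globin share and the Hbb-bh1 share of beta was -0.40, against -0.03 for the Hba-x share of alpha. These cells come from 1 library, and both measures are shares of the same counts, so the values are descriptions. Over the 243 cells from 2000 globin UMIs per 10000 upward, the rho with Hbb-bh1 was -0.35. Only 4 cells had over 50% Hbb-bh1, and they were among the 6 poorest in globin: at 1187.8, 1654.6, 1703.4 and 1914.2 globin UMIs per 10000, Hbb-bh1 was 55.6%, 52.7%, 54.9% and 53.5% of beta, and Hba-x 77.6%, 61.1%, 71.7% and 71.0% of alpha. The remaining pair of low cells, at 1161.4 and 1626.2, had 39.5% and 44.0% Hbb-bh1. This pair had clustered outside the erythroid clusters, and so had the cell at 1187.8, which fell in the cluster led by Pf4. In the scatter of globin make-up, 3 of those 4 cells lie apart at the upper right.

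**Figure D2:**
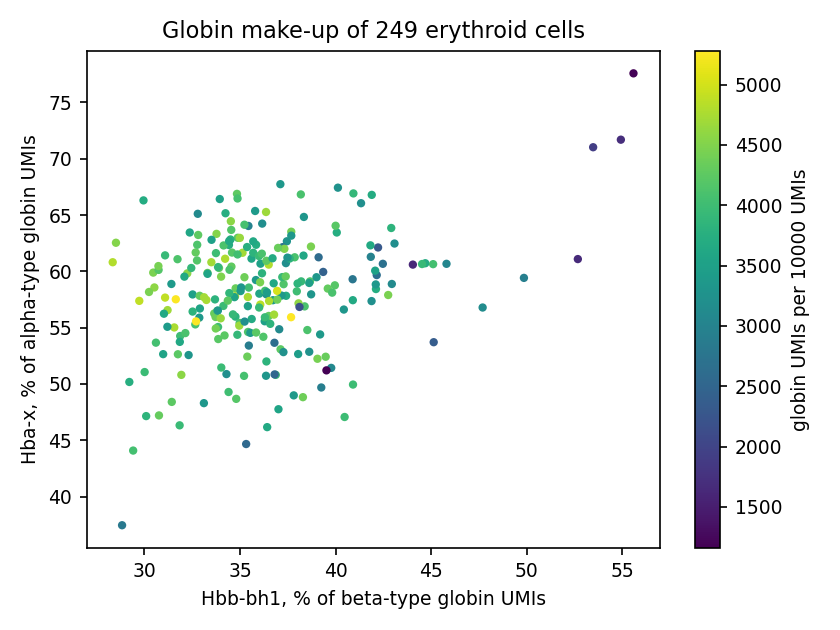
Each point is 1 of 249 erythroid cells, with the Hbb-bh1 share of its beta-type globin UMIs (x, %) against the Hba-x share of its alpha-type globin UMIs (y, %), coloured by globin UMIs per 10000. Most cells lie near 35.7% and 58.4%, and the few cells beyond 50% Hbb-bh1 are all poor in globin.

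Globin UMIs were also present in every other E9.5 cell, at 30.6 to 510.4 per 10000 (median 65.3). Over the 11 clusters with at least 20 such cells the level stayed between 62.1 and 69.7, a like low share in heart muscle, endothelial and mesenchymal clusters. Their make-up differed from that of the class: alpha-type UMIs numbered 0.383 per beta-type UMI (0.378 to 0.406 over these clusters, 0.615 in the class). Hba-a2 took 11.5% of alpha (5.64% in the class), while Hba-x took 63.2% and Hbb-bh1 34.3% of beta. The cluster led by Pf4, with 12 cells outside the class, is not among the 11 and differed from them. Pooled, those 12 cells had 128.8 globin UMIs per 10000 and 0.231 alpha-type UMIs per beta-type UMI, with Hbb-bh1 at 57.8% and Hbb-y at 41.6% of beta. Levels of other erythroid genes in the cells outside the class can hold free RNA too, and its part in them was not tested.

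For all other genes the level is given as UMIs per 10000 non-globin UMIs, summed over the cells of a side, with exact Poisson 95% intervals that cover counting error only. A gene with at least 50 UMIs was counted as higher or lower where the log2 ratio of the levels, with 0.1 added to both, was at least 1 in size. Of 11470 genes, 442 (3.85%) were higher in erythroid cells and 1680 (14.6%) lower, 18.5% in either direction, with a median log2 ratio of -0.27. Higher genes thus made 20.8% of those past the fold, but 6.80% with all UMIs as the denominator (median log2 ratio -0.52) and 40.6% after dividing by the median ratio. The library has no replicate, and the contrast chose the cells, so these shares serve as the background for the lists below and nothing else is read from them.

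Haem synthesis stood out as a whole pathway. All 13 of its listed genes were higher (3.85% of all genes were), with a median log2 ratio of 3.21, and 11 were with all UMIs as the denominator. Alas2, the X-linked first enzyme of haem synthesis in red cells, stood at 16.04 (15.7 to 16.4) against 0.127, a ratio of 126 (112 to 143). It was found in 99.6% of erythroid cells, at 0 to 34.2 with a median of 15.8, and in 24.6% of the other cells, where no cell passed 2.53. Alad, which acts next in the pathway, stood at 11.8 against 0.861. The mitochondrial end of the pathway showed the larger ratios: Cpox was at 9.24 against 0.428, and Fech, which inserts the iron, at 9.35 against 0.444. The whole list summed to 101.9 per 10000 (single cells 24.6 to 150.3, median 103.5) against 8.38, and the highest of the other cells, at 38.0, overlapped only the lower edge of the class.

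Genes that bring in and store iron were mixed. Of 14, 7 were higher and 1 lower (median 1.17). The ferritin chains Fth1 and Ftl1 were the most abundant, at 97.6 against 12.5 and 91.2 against 32.9, and Fth1 was found in every cell of both sides. Slc25a37, the mitochondrial iron importer, stood at 6.93 against 0.143 (48.6-fold), Glrx5, which serves iron-sulphur clusters, at 18.3 against 2.65, and the transferrin receptor Tfrc at 2.74 against 0.412. Hmox1, which breaks haem down, was the gene that was lower, at 0.0370 against 0.320. The plasma iron carrier Trf had 1 UMI in the class, against 97 in the other cells. The iron exporter Slc40a1, with 30 UMIs in the class, had the higher level there, at 0.0584 against 0.0170, without passing the fold.

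Erythroid transcription factors were mostly higher in the class. Of 15 factors 9 were higher and none lower (median 1.53). Klf1, which drives the late globin and membrane programme, stood at 5.93 (5.72 to 6.14) against 0.115 and was found in 99.2% of cells. Gata1, the master erythroid factor, stood at 2.37 (2.24 to 2.51) against 0.0550 and was found in 94.0% of cells against 7.58%. Their partners Tal1 (1.55 against 0.117), Nfe2 (1.08 against 0.0456), Gfi1b (0.677 against 0.0322) and Ikzf1 (0.562 against 0.0156) followed. The broadly used cofactors Ldb1 (0.399 against 0.314) and Cbfa2t3 (0.251 against 0.215) were near the level of the other cells.

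Progenitor genes were low in erythroid cells. Of 10 tested none was past the fold upward and 4 were lower (median -0.84). Runx1, a factor of blood formation, had the higher level in the class, at 0.0623 (32 UMIs, 10.4% of the cells) against 0.0304 (3.26%), without passing the fold. Meis1 had 34 UMIs (0.0661 against 0.538) and Hhex 24. Kit, the stem cell factor receptor, had 2 UMIs in the whole class and Myb, a factor of definitive progenitors, 1. Gata2 had 12 UMIs, Cd34 had 14 and Etv2 had 17. Of 7 factors known to act in globin switching none was higher and Klf2 was lower, at 0.152 against 0.937. These counts are near the shares over all genes (3.85% higher and 14.6% lower). Bcl11a, which silences embryonic globins in definitive cells, had 2 UMIs in all 249 cells, and its partner Sox6 had 7.

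Erythropoietin signalling was represented by its receptor. Epor stood at 2.07 (1.94 to 2.19) against 0.0626, a ratio of 33.0 (27.7 to 39.7), in 96.4% of the cells against 11.9%. The kinase Pim1, a target of the pathway, stood at 3.76 against 0.796, and these were the 2 genes past the fold among 8. Jak2 (0.127 against 0.0782) and the survival gene Bcl2l1 (0.341 against 0.283) were not past it.

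The red cell membrane was the next strong group. Slc4a1, the band 3 anion exchanger, stood at 4.62 (4.43 to 4.81) against 0.0398, and 99.6% of the erythroid cells had it, at 0 to 14.0 with a median of 4.69. Of 17 membrane protein genes 12 were higher and 2 lower (median 2.88). The Rh complex genes Rhag (1.58 against 0.00894, from 20 UMIs) and Rhd (1.90 against 0.0121, from 27 UMIs), the blood group genes Ermap (1.07), Icam4 (1.16) and Kel (0.722) and the nucleoside transporter Slc29a1 (2.69) were among them. The lower genes were Cd24a, at 1.23 against 4.28, and the glucose carrier Slc2a1, at 2.12 against 4.59. The water channel Aqp1 had 0 UMIs among 5140250 and was thus at least 4.29-fold lower than in the other cells, with 3 UMIs over the class as the floor.

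Under the membrane, 8 of 13 skeleton genes were higher and none lower (median 2.18), against 7 higher and 3 lower with all UMIs as the denominator. Epb42, protein 4.2, stood at 1.08 against 0.00849, beta adducin Add2 at 1.18 against 0.0197 and dematin Dmtn at 0.829 against 0.0179. The spectrin chain Sptb (0.751 against 0.0693) and ankyrin Ank1 (0.535 against 0.0402) were less abundant, found in 69.9% and 63.1% of the cells. The tropomodulin Tmod1 and the tropomyosin Tpm3, which heart muscle also makes, stood at 0.947 against 1.74 and 1.01 against 1.86.

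**Figure D3:**
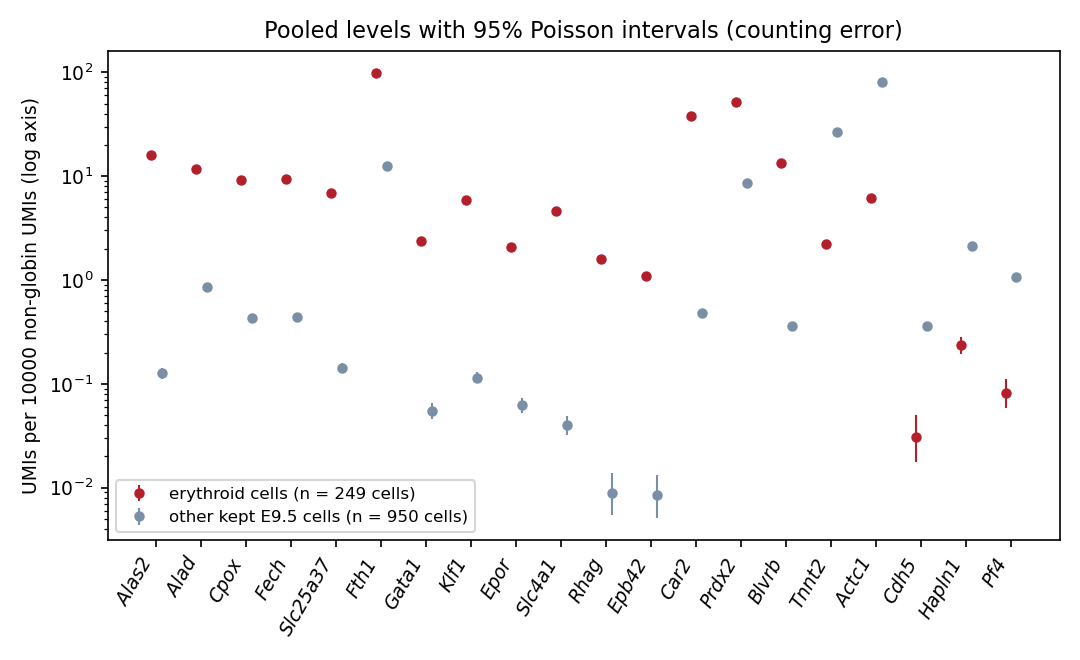
Levels of 20 genes in the erythroid cells (red) and the other kept E9.5 cells (grey), as UMIs per 10000 non-globin UMIs on a log axis, with 95% Poisson intervals of counting error. From Alas2 to Blvrb the red points lie above the grey, and from Tnnt2 to Pf4, markers of other cell types, they lie below, for Pf4 mainly through 4 of the other cells.

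Genes that protect the cell from oxidation and handle its gases were abundant. Of 14 tested 9 were higher and none lower (median 1.84), or 7 and 2 with all UMIs as the denominator, and the list summed to 175.0 against 34.1. Prdx2, a peroxiredoxin, stood at 51.2 (50.6 to 51.8) against 8.63, and Gpx1, a glutathione peroxidase, at 38.7 against 3.91. Car2, carbonic anhydrase 2, stood at 38.2 (37.7 to 38.7; cells 6.95 to 129.9) against 0.478, while Car1, its relative known from definitive red cells, had 1 UMI. Blvrb, a flavin and biliverdin reductase, reached 13.5 against 0.361, and Bpgm, which makes the allosteric effector of haemoglobin, 5.83 against 0.376. Gpx4, which repairs membrane lipids, stood at 6.61 against 9.89. The alpha globin chaperone Ahsp was not analysed here.

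Genes of late maturation were mixed. Among 13 for organelle clearance and enucleation, 4 were higher and none lower, with a median of 0.12 that turned to -0.43 with all UMIs. Trim10 stood at 2.11 against 0.0121 and the ubiquitin enzyme Ube2l6 at 2.90 against 0.215. The mitophagy receptor Bnip3l, at 3.83 against 3.61, was near the other cells. None of 10 chromatin condensation genes was past the fold (median -0.62), but 6 were lower with all UMIs as the denominator (median -1.13). The linker histone H1f0 stood at 1.30 against 2.59, and Hmgb2 at 9.92 against 12.9.

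Genes of the cell cycle varied over the class. The S phase genes summed to 4.131 to 62.65 per 10000 non-globin UMIs in single cells (median 26.88). The G2/M genes summed to 0 to 76.07 (median 33.0). Of 18 S phase genes none was past the fold and the median was 0.57, and of 18 G2/M genes 1 was higher, with a median of 0.51. With all UMIs as the denominator these medians turned to -0.05 and -0.08, so their direction against other cells depends on the scaling. After dividing by the median ratio 4 S phase and 5 G2/M genes were higher. Mki67 stood at 1.85 (1.74 to 1.97) against 0.487 and was found in 88.0% of the cells, and the mitotic cyclin Ccnb1 at 3.90 against 2.15. The D cyclins parted: Ccnd3 was at 9.94 against 2.96, Ccnd2 at 0.574 against 2.50 and Ccnd1 at 0.0681 against 0.681. Cdkn1c, the p57 inhibitor of the cycle, was at 1.24 (cells 0 to 51.8, median 0.540) against 15.8.

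Glycolytic enzymes were mostly lower, and 1 was higher. Of 18 genes 12 were lower and 1 higher (14.6% and 3.85% of all genes were), with a median of -1.30, and the list summed to 69.0 against 159.3. The lower genes numbered 10 after dividing by the median ratio and 16 with all UMIs as the denominator. The higher gene was Pklr, the gene of the liver and red cell pyruvate kinase, at 1.18 against 0.00671 (15 UMIs). Its counterpart Pkm was at 7.47 against 21.6, Eno1 at 3.38 against 12.3 and Ldhb at 0.177 against 1.99. Ldha stood at 20.6 against 39.4. None of 18 nuclear-encoded respiratory chain genes was past the fold (median -0.23, and 0.04 after dividing by the median ratio), but 6 were lower with all UMIs (median -0.89). Cox4i1 stood at 14.0 against 16.9 and Atp5b at 22.7 against 22.4.

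Translation genes made up a large part of the remaining RNA. The 83 ribosomal protein genes summed to 2281 per 10000 against 1463. Of the 80 tested none was past the fold, and their median of 0.60 turned to -0.07 with all UMIs as the denominator. Of 9 genes known to control globin translation 5 were higher (median 1.02), and 1 was with all UMIs. Eif2ak1, the haem-regulated kinase that stops translation when haem is short, stood at 0.947 against 0.207, and the poly(A)-binding genes Pabpc1 and Pabpc4 at 19.9 against 9.07 and 2.16 against 0.762.

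Genes for RNA binding and growth in the early embryo were mostly low, with 12 of 14 lower (median -2.39). Hmga2, an architectural chromatin protein, stood at 0.292 against 3.604, Lin28a at 0.0136 against 0.254 and Igf2 at 0.331 against 2.35. Lin28b (0.0759 against 0.104) and the imprinted RNA H19 (10.1 against 14.6) were not past the fold. Imprinted Mest stood at 1.09 against 11.4.

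**Figure D4:**
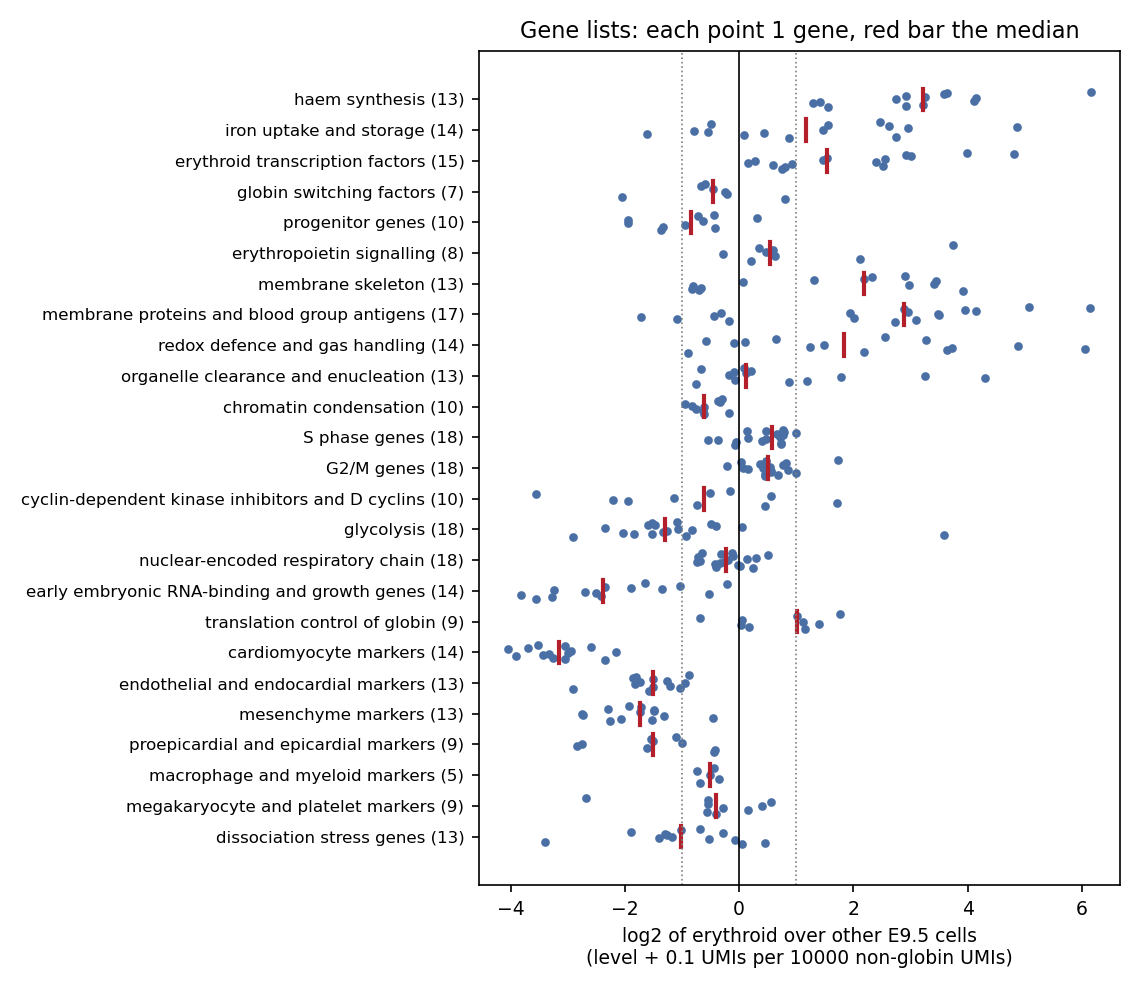
Log2 ratio of erythroid over other E9.5 cells for each tested gene (points) of the lists with at least 3 tested genes, with the list medians in red and dotted lines at 2-fold. Haem synthesis, membrane and redox lists lie to the right, glycolysis and the markers of heart cell types to the left, and the cell cycle lists near 0.

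Outside the globins, the genes with the largest log2 ratios included Alas2 (6.15), Car2 (6.05), Acp5 (5.11), Hemgn (5.10), Slc4a1 (5.08), Blvrb (4.88), Slc25a37 (4.86), Mgst3 (4.84), Mt2 (4.82), Klf1 (4.81) and Cited4 (4.58). Of those not yet described, the acid phosphatase Acp5 (chromosome 9, 22126727 to 22135711, GRCm38) stood at 6.46 (6.24 to 6.68) against 0.0894. Hemgn, a nuclear protein of haematopoietic cells, stood at 4.43 against 0.0322. Mgst3, a microsomal glutathione transferase, reached 23.3 (cells 1.68 to 50.1) against 0.720, and Cited4, a transcriptional coactivator, 14.1 (cells 3.39 to 59.2) against 0.494. Mt2, a metallothionein that binds zinc, stood at 6.19 against 0.123 but was found in 73.9% of the cells, from 0 to 48.8 with a median of 2.53. The others named here were each found in at least 98.4% of the cells.

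The genes with the smallest ratios were Tagln (-4.28), Myh6 (-4.04), Ttn (-3.90), Meg3 (-3.82), Ankrd1 (-3.70), Actc1 (-3.70), Cnn2 (-3.64), Acta2 (-3.63), Sparc (-3.59), Tmsb10 (-3.57), Cdkn1c (-3.56) and Sh3bgr (-3.56). Cardiac actin Actc1 stood at 6.16 (cells 0 to 80.4, median 4.96) against 81.0, and the smooth muscle protein Tagln at 0.226 against 6.24. Thymosin Tmsb10, found in every one of the other cells, stood at 1.90 against 23.6.

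Markers of the other heart cell types were low in the class but not absent. All 14 cardiomyocyte markers were lower (14.6% of all genes were), and their summed level was 37.9, from 11.3 to 308.6 over single cells with a median of 33.0, against 398.7. The most abundant, atrial Myl7, was found in every erythroid cell at a median of 12.5. Of 13 endothelial and endocardial markers 11 were lower (sum 1.01, cells 0 to 9.84, against 5.57), of 13 mesenchyme markers 12 (0.611, cells 0 to 12.4, against 6.88), and of 9 epicardial markers 7. Among markers of related blood lineages, 5 of 12 myeloid genes could be tested and none was past the fold (sum 0.109 against 0.431). Of 9 megakaryocyte genes Pf4 was lower, at 0.0817 against 1.06, but 2132 of the 2373 Pf4 UMIs of the other cells came from 4 cells with 100 to 1000 globin UMIs per 10000. Against the 939 cells under 100, where Pf4 stood at 0.109, its log2 ratio was -0.20 and not past the fold. The part of free RNA in these levels was not tested. Of 13 dissociation stress genes tested 7 were lower, with Hspb1 at 0.829 against 9.71 and Fos at 0.955 against 1.59, and the part of handling was not tested.

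To describe the class by globin share, its cells were ranked and cut into 4 groups of 63, 62, 62 and 62, spanning 1161.4 to 3403.5, 3408.0 to 3914.7, 3916.6 to 4247.7 and 4257.3 to 5280.4 globin UMIs per 10000. Few genes separated the ends. Of 6395 genes with at least 50 UMIs in the class, 11 (0.172%) were at least 2-fold higher in the highest group than in the lowest and 48 (0.751%) lower, 0.923% in either direction, with a median log2 ratio of -0.04. All 3 scored doublets and the 3 members that clustered elsewhere were in the lowest group. Without these 6 cells the counts were 8 higher and 11 lower, so the count of lower genes rests largely on them.

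Haem and membrane genes were somewhat higher in the globin-rich cells. The haem synthesis sum was 88.7, 103.1, 110.4 and 110.2 from the lowest to the highest group, and the membrane protein sum 43.1, 48.1, 51.1 and 53.1. Sums by group include the 6 cells, which are all in the lowest group. Alas2 stood at 12.5, 15.7, 18.3 and 19.2, a log2 difference of 0.61 between the ends (0.50 without the 6 cells). Slc4a1 stood at 4.21, 4.26, 4.80 and 5.53 (log2 0.39, and 0.26 without them). The redox sum went from 151.2 to 194.2. No haem synthesis, skeleton or redox gene was past the fold, but only 0.923% of all genes were, in either direction. With all UMIs as the denominator the haem and redox medians were -0.16 and -0.07 in place of 0.22 and 0.31, a scale on which the higher globin share itself lowers every other level.

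The Rh gene Rhd was the membrane gene past the fold, at 1.13, 1.92, 2.34 and 2.50 (log2 1.08, and 0.89 without the 6 cells). The metallothioneins went with it: Mt2 stood at 4.21, 4.50, 8.57 and 8.71 (log2 1.03), and Mt1 at 8.41, 7.91, 15.7 and 16.6 (log2 0.97). Without the 6 cells their log2 differences were 0.80 and 0.82. As means over cells Mt2 and Mt1 stood at 0.56 and 0.51, and Rhd at 0.87. With all UMIs as the denominator Rhd, Mt2 and Mt1 stood at 0.70, 0.65 and 0.59, none past the fold. Less abundant genes with a higher level in the highest group were Gm16867 (1.18), Lmx1a (1.12), St6galnac3 (1.08), Adra2b (1.07), Eif2s3y (1.03), Lockd (1.03) and Gm21092 (0.93), each with 29 to 69 UMIs there. Eif2s3y lies on the Y chromosome, and the pooled embryos were of both sexes.

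**Figure D5:**
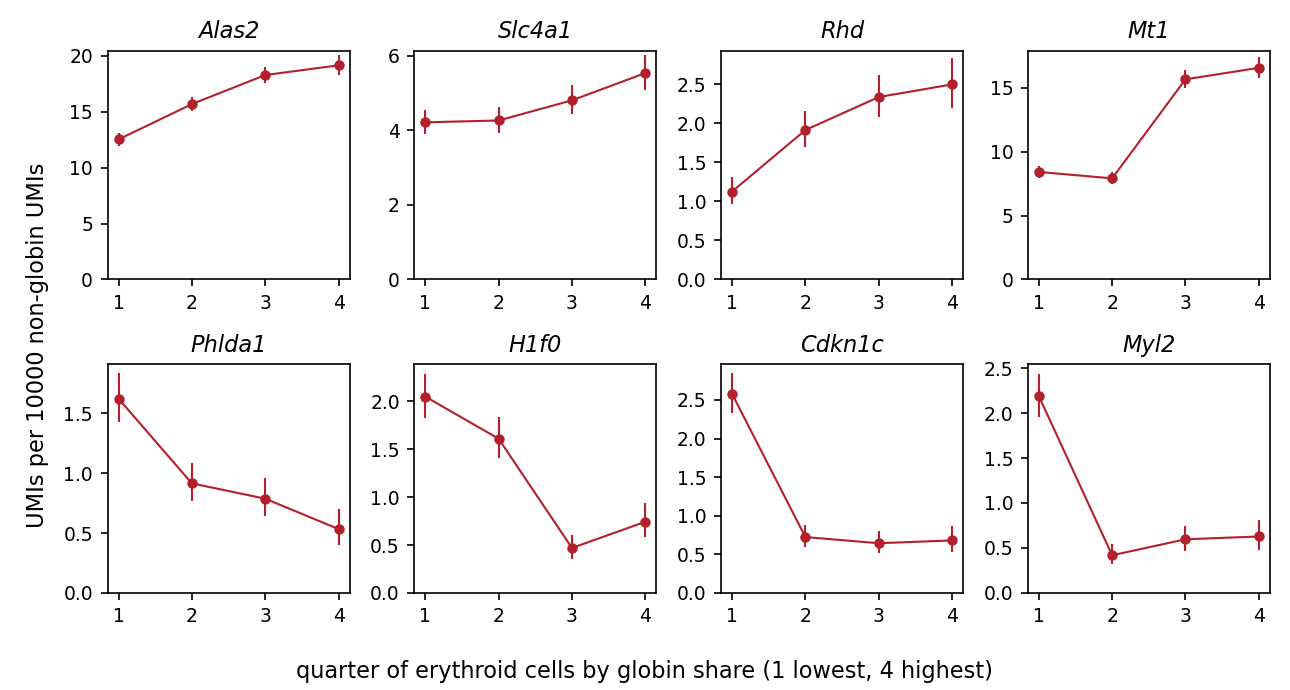
Levels of 8 genes in 4 groups of erythroid cells ranked by globin share (group 1 lowest, 63 cells; the others 62), as UMIs per 10000 non-globin UMIs with 95% Poisson intervals. Alas2 and Rhd are higher from group to group, Slc4a1 is higher in group 4 than in group 1, Mt1 is higher in groups 3 and 4, Phlda1 and H1f0 are lower there, and Cdkn1c and Myl2 are high in group 1 alone, which holds the doublets and the cells that clustered elsewhere.

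The genes lower in the globin-rich cells were of different kinds. Phlda1, a gene of growth factor response, stood at 1.62, 0.915, 0.787 and 0.534 (log2 -1.44, and -1.13 without the 6 cells). H1f0, the linker histone of the chromatin list, stood at 2.05, 1.61, 0.469 and 0.743 (log2 -1.35, and -1.11 without them). Ddah1 stood at 0.455 against 0.0837 (-1.59, and -1.32 without them). For the others the 6 cells decided the value: Cdkn1c went from -1.78 to 0.29, Mest from -1.60 to 0.02, Myl2 from -1.65 to 0.14, Acta1 from -1.36 to 0.06, Hapln1 from -1.58 to -0.09, Smpx from -1.48 to -0.08, Myh7 from -1.68 to -0.68 and Map1b from -1.61 to -0.82. Cardiomyocyte markers summed to 48.5, 31.8, 33.7 and 35.7 over the 4 groups.

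Glycolytic genes stood lower in the globin-rich cells. The glycolytic sum was 81.8, 68.6, 63.9 and 56.0, with a median log2 difference of -0.53 between the ends over 17 genes, none past the fold. With all UMIs as the denominator 6 were (median -0.81). The lowest group holds the scored doublets and the members that clustered elsewhere, and these glycolytic values are not given without them. Slc2a1 stood at 2.52, 2.40, 1.85 and 1.41. The S phase sum was 28.5, 28.9, 28.3 and 25.2 and the G2/M sum 33.0, 37.0, 34.98 and 38.6, and Mki67 stood at 1.54 in the lowest and 2.70 in the highest group. Globin make-up moved little: Hbb-bh1 was 39.1%, 35.7%, 35.3% and 34.5% of beta, Hbb-y 60.1%, 63.4%, 63.8% and 65.0%, and Hba-x 58.6%, 59.2%, 57.8% and 58.7% of alpha.

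Fewer genes were seen per cell in the class than in the other cells. Thinned to 5000 UMIs, erythroid cells showed a median of 1360 genes and the other cells 2071.5, and the medians of the lowest and highest globin groups were 1481 and 1257.5. Thinned to 2000 non-globin UMIs the same medians were 1021, 1115, 1022 and 1015. No cell was too shallow for either depth. Unthinned, the lowest group had a median of 35235 UMIs and 4285 genes and the highest 29394 UMIs and 3512.5 genes.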

How the data were processed

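Per the labels, tomato-positive mouse heart cells were sequenced with the 10x 3' kit. The authors deposited raw UMI counts for each gene in each cell. Cell Ranger 2.1.1 and the build mm10 are named in the submitters' processing notes. For strand setting and cell calling, nothing is given in the sources used here. Other deposited text values pair 27998 Ensembl gene identifiers with symbols. Gene positions come from GENCODE vM21 (GRCm38) and promoter windows from RefSeq.

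Counts of the 1206 E9.5 cells were filtered, and raw counts were summed over erythroid and other cells with numpy 2.4.6, scipy 1.17.1 and pandas 2.3.3 (Python 3.11.15); clusters and scrublet doublet scores came from scanpy 1.11.5 (Leiden, resolution 1, 2000 variable genes, 20 components, 15 neighbours, seed 0), and scored doublets were kept in the main values. With 1 library at this stage there is no p-value, and cells are not replicates. Named genes are all globins, examples of 26 gene lists with most UMIs or the largest ratio, the 12 largest and 12 smallest log2 ratios against other cells (at least 100 UMIs), and the 10 each way by globin share. The members and lists were chosen with earlier results of these data known. A few genes are not reported here. The sums were tested on simulated data. Scaling, added constant, UMI minimum, globin threshold, doublets, mitochondrial limit and the number of globin groups were varied.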

Additional observations from a re-analysis of the deposited data

How the results depend on the processing

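No paired analysis was possible because the E9.5 stage has 1 library. Every value rests on counting error within that library, and low genes are limited by depth. The class kept 239 to 250 cells under each other rule tried except a threshold of 4000 globin UMIs per 10000, which left 107 cells (8.92%). Higher and lower genes against other cells numbered 192 and 2632 with all UMIs, 762 and 1116 after dividing by the median ratio, 721 and 4092 with 0.01 added and 110 and 205 with 1 added, since a small added constant lets low genes pass. By globin share the counts were 0 and 80 with all UMIs, 4 and 23 with 3 groups in place of 4, 0 and 1 with 1 added, 5 and 14 with at least 200 UMIs, and 6 and 16 from 2000 globin UMIs upward. They were 8 and 17 without the 3 members outside the erythroid clusters and 8 and 11 without these and the scored doublets, both alternatives chosen after seeing the data. Without the scored doublets alone the counts were 8 and 33, Myl2 turned to 0.20 and Acta1 to 0.16. Without all 6 cells Cdkn1c turned to 0.29, Mest to 0.024, Myl2 to 0.14 and Acta1 to 0.065. As means over cells Hba-x was 58.1% of alpha, Hbb-y 62.9% and Hbb-bh1 36.3% of beta, and above 4000 globin UMIs Hbb-y was 64.6% and Hbb-bh1 34.8%. Thinned to 2000 non-globin UMIs the median genes per cell were 1021 (erythroid), 1115 (other), 1022 and 1015 (lowest and highest group). Of 4732 values of 338 genes against other cells under these alternatives 81 changed sign, 37 of them with all UMIs and 29 after dividing by the median ratio, but none of the 2380 values of the 170 genes with a log2 ratio of at least 1 in size. Of 270 values of 27 genes by globin share 7 changed sign, the 6 given above and Car2, at 0.30 and -0.08 with all UMIs.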

Other observations

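The comparisons here were chosen after the data were seen and are given as values. Ranked by the Hbb-bh1 share of beta globin in place of the globin share, the 63 cells with the least Hbb-bh1 (28.3 to 33.8%) and the 62 with the most (38.1 to 55.6%) differed in the metallothionein genes more than in Alas2 or Slc4a1. Mt1 stood at 21.6 (20.7 to 22.4) per 10000 non-globin UMIs in the former and 5.31 (4.94 to 5.69) in the latter, and Mt2 at 11.9 and 2.82. The steroid dehydrogenase gene Hsd3b6 stood at 2.04 and 0.439, and Rhd at 2.64 and 1.18. Hsd3b6 was uneven over the class, from 0 to 48.2 with a median of 0. Of the 249 cells 236 had under 5 and 3 had over 15, so its pooled levels can rest on few cells. H1f0 went the other way, at 0.527 and 1.94. Alas2 stood at 17.8 and 14.5, and Slc4a1 at 5.36 and 3.76. Among cells from 2000 globin UMIs upward Mt1 stood at 21.8 and 6.07, Hsd3b6 at 2.04 and 0.608 and H1f0 at 0.444 and 1.497. Median depth was 28660 and 35735 UMIs in the 2 groups of all members.

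Mt1 and Mt2 varied together from cell to cell (Spearman's rho 0.89 over 249 cells of 1 library). Mt1 ran from 0 to 93.6 with a median of 5.82, and 115 cells had under 5 while 73 had over 15; of the 950 other cells 940 had under 5. The rho of Mt1 was 0.25 with the globin share and -0.34 with the Hbb-bh1 share.

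The 11 cells with 100 to 1000 globin UMIs per 10000 were outside the class. All but those at 192.3, 379.5 and 510.4 had at most 140.5. Pf4, a megakaryocyte and early blood progenitor gene, reached 134.8 per 10000 non-globin UMIs there, from 2132 UMIs in 4 of the cells. Gata1 stood at 2.02 (1.38 to 2.86), from 32 UMIs in 4 of the 11. Alas2 stood at 0.569 (found in 3 of the 11) and Klf1 at 0.253 (in 2), against 7.01 and 3.48 in the 6 cells with 1000 to 2000, where Pf4 had 0 UMIs. In these 6 cells Cdkn1c (10.8), Mest (7.77), Phlda1 (4.46) and H1f0 (4.15) stood above the 243 cells with more globin (0.810, 0.785, 0.865 and 1.17). Of the 6, those at 1161.4, 1187.8 and 1626.2 lay outside the erythroid clusters. In the 939 cells under 100 the same genes stood at 15.8, 11.4, 1.82 and 2.60.

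Sex-linked RNA was seen in most erythroid cells. Xist without any of 4 Y-linked genes was found in 99 cells, a Y-linked gene without Xist in 94, both in 30 and neither in 26, against 426, 395, 78 and 51 of the 950 other cells. The rho of Xist with Eif2s3y was -0.55 over the class.

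The ribosomal gene Rps2 was uneven: 87 erythroid cells had under 5 per 10000, 2 had 5 to 15 and 160 had over 15 (median 28.3). In the other cells these counts were 375, 178 and 397. Rps2 has near-identical copies elsewhere in the genome, so its count is uncertain.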
